A study of Mus musculus with 10 samples.

Results

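The splicing factor genes described here are the mouse genes whose symbols place them among the Snrp, Srsf, Sf3a, Sf3b, Hnrnp, Prpf and Lsm families. The rule reads symbols and no measured value, although the set was proposed with earlier results of these data known, and 71 of the 18193 genes represented on the array met it. Each gene was read from the probe set that named only that gene and had the highest mean signal over all arrays. Of the 71 genes, 68 were bright enough to be tested. Snrpn, Srsf12 and Lsm2 were not, with mean log2 signals of 4.16, 4.08 and 4.71 against a cutoff of 4.82. The dimmest tested members were Prpf40b and Prpf39, at 6.20 and 6.52. A further 6 symbols of these families (Hnrnpa3, Hnrnpa1l2-ps2, Lsm5, Snrpa, Snrpd1 and Snrpd2) occurred only on probe sets that name several genes and are not members.

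The arrays came from bone marrow of 10 female mice aged 8 weeks on a B6.SJL-Ptprca Pep3b/BoyJ background, 1 array a mouse. The 5 Mll-deficient mice had the genotype Mx1-cre;Mll F/F, in which both copies of Mll can be deleted by a Cre recombinase under an interferon-responsive promoter. The 5 control mice were Mll F/F without cre, so effects of Cre and of Mll loss cannot be told apart. Mice of both groups were given 3 injections of pI:pC, a synthetic double-stranded RNA that induces interferon, each of 10 µg per gram of mouse and a further 50 µg, with 48 hours between injections. On day 6 the LSK/CD48- fraction, which lacks lineage markers and CD48, bears Sca-1 and Kit and is enriched for haematopoietic stem cells, was sorted, and RNA from 1500 to 10000 cells was amplified before labelling. Mll, gene symbol Kmt2a, is a histone methyltransferase needed for blood stem cell maintenance. Mice are numbered within each group as in the labels, which name no pairing of a control with an Mll-deficient mouse. The main fit used no pairs, and p-values rest on the spread between these mice.

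Introns are removed from transcripts by the spliceosome, which is built from small nuclear ribonucleoprotein particles, each a short RNA with its proteins. Sm proteins form a ring around most of these RNAs, and Lsm proteins form a like ring around the U6 RNA. SF3a and SF3b proteins help the U2 particle hold the branch site of the intron, Prpf proteins serve mainly in the U4/U6.U5 particle and in the activated spliceosome, and SR and hnRNP proteins bind exons and introns and often act in opposite directions on splice site choice. Blood cells depend on these proteins, and mutations of SF3B1 and SRSF2 recur in human myelodysplastic syndromes.

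Signals were scaled by the depositors to the same trimmed mean on each array, with medians from 18.1 to 28.9 arbitrary units. Over all probe sets that name 1 gene and lie above the brightness cutoff, pairs of arrays correlated at 0.885 to 0.964. Control 5 was the array least like its group, at an average r of 0.916 with its fellow controls against 0.945 to 0.956 for every other array within its own group. It also had the highest ratio of 3′ to middle probe sets of Gapdh and Actb, a sign of RNA quality, at 5.24 on the log2 scale, where the group means were 2.97 ± 1.42 for controls and 3.16 ± 0.60 for Mll-deficient mice (SD, n = 5 each). Control 5 was the highest or the lowest of the 5 controls for 50 of the 68 tested members (73.5%) and for 62.8% of all tested genes. The targeted gene, Kmt2a, gave 260 ± 85.8 in controls and 216 ± 97.2 in Mll-deficient mice on its brighter probe set (log2 difference -0.38 ± 0.35 SE, adjusted p = 0.736), and 74.7 ± 22.1 against 49.7 ± 32.0 on the dimmer one (-0.55 ± 0.31 SE, adjusted p = 0.498). Whether these probe sets lie in the deleted part is not given in the sources used here, so the labels are not checked by them.

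Between the groups, 4 of the 68 tested splicing factor genes were higher in Mll-deficient cells and 0 were lower (limma, adjusted p under 0.05 over 12580 genes). The 4 were Snrpf and Snrpd3, proteins of the Sm ring, Lsm7, a protein of the U6 ring, and Sf3b5, a small SF3b subunit. They were between 1.86 and 2.24 times as high as in controls, on the scale of log2(signal + 16). The share of members called higher, 5.88%, stood beside 3.76% of all tested genes called higher, and 1.76% of all tested genes were called lower. At an unadjusted p under 0.05, 15 members were higher (22.1%) and 0 lower, against 10.5% and 10.2% of all tested genes. All 5 Mll-deficient arrays lay above all 5 controls for 6 members (8.82%; Snrpd3, Lsm7, Sf3b5, Snrpc, Prpf31 and Lsm14b), against 4.42% of all genes, and below them for 0 members, against 2.54%. The median log2 difference, Mll-deficient minus control, was 0.13 over the members and -0.04 over all tested genes, and 44 members (64.7%) had a difference above 0, against 46.6% of all genes. Under quantile normalization these medians were 0.09 and 0.00, and after centring on each array's median 0.19 and 0.03. In a bulk sample, more RNA per cell and more cells of a type that carries more of it cannot be told apart.

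**Figure D1:**
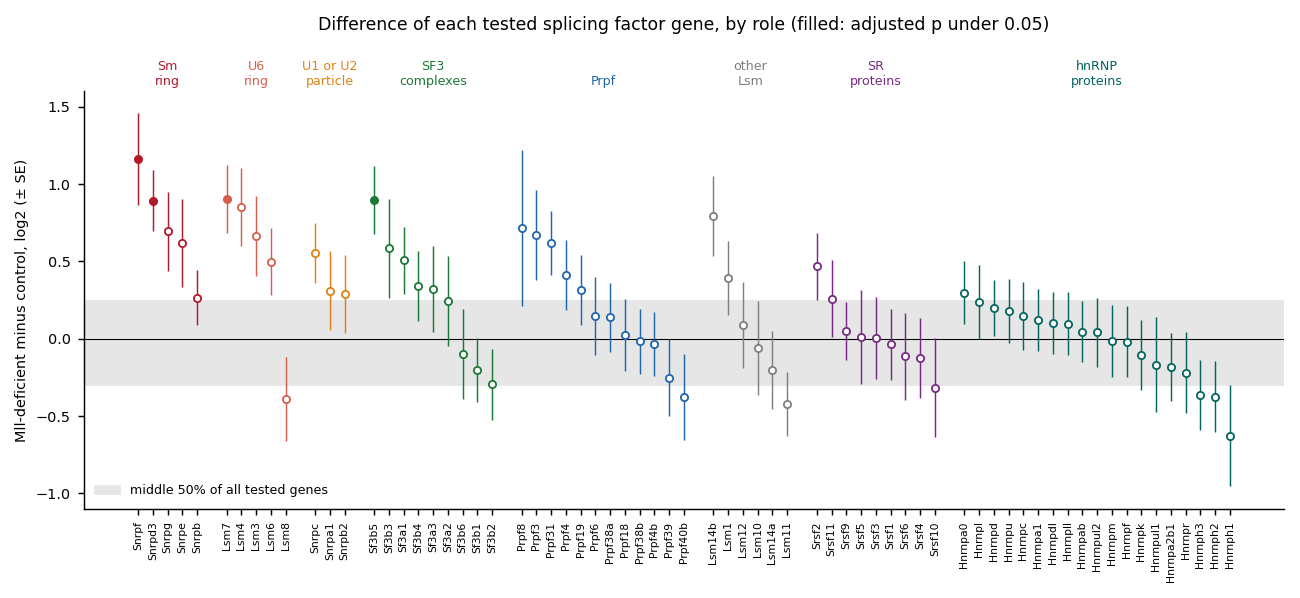
Log2 difference (Mll-deficient minus control) of each of the 68 tested splicing factor genes, grouped by role, with bars for the SE, filled points for the 4 genes at an adjusted p under 0.05 and a grey band for the middle 50% of all tested genes. The filled points are Snrpf, Snrpd3, Lsm7 and Sf3b5, at 0.89 to 1.16, and the members below 0 reach -0.63 (Hnrnph1).

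The core rings held 3 of the 4 genes. Of the 10 tested Sm and U6 ring genes, 9 lay above 0 (90%, against 46.6% of all tested genes; median difference 0.68). Of the 10, 8 were higher at an unadjusted p under 0.05 (80%, against 10.5%), and 3 were called (30%, against 3.76%). The roles were defined separately, and these 2 rings were pooled only for this summary, as were the SR and hnRNP genes below. Taken apart, 2 of 5 tested Sm ring genes (40%) and 1 of 5 tested U6 ring genes (20%) were called. The RefSeq table of upstream regions, on the GRCm38.p6 build, lists these 3 called ring genes. Their 250 bases before the transcription start are shown here, 5′ to 3′ on the gene's strand, because these members rose and may be read side by side. Capitals mark 3 motifs on either strand. The CCAAT box is known as a site of NF-Y. The core CTTCCG is known from ETS factors. The core TGCGCA is known from NRF1. Lsm7 is at chr10:80855210-80855459 on the minus strand, Snrpd3 at chr10:75517792-75518041 on the plus strand and Snrpf at chr10:93589659-93589908 on the minus strand.
Lsm7: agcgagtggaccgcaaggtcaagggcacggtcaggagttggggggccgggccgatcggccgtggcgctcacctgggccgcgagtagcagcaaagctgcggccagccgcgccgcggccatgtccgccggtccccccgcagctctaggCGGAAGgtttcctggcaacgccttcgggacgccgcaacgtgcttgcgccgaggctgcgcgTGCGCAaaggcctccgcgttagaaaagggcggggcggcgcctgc
Snrpd3: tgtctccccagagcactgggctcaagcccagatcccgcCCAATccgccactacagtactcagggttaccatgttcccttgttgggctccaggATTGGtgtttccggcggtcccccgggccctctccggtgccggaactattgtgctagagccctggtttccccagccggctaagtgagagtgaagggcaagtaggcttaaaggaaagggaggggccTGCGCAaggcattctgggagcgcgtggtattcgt
Snrpf: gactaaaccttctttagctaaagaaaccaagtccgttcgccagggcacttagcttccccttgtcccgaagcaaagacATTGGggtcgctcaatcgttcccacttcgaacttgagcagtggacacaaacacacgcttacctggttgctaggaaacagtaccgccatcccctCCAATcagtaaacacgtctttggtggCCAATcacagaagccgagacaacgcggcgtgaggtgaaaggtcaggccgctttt
The upstream bases of Lsm7 hold 72.4% G and C, those of Snrpd3 60.4% and those of Snrpf 52.0%. None of the motifs is common to all 3 sequences. The CCAAT box occurs in Snrpd3 and Snrpf. The NRF1 core occurs in Lsm7 and Snrpd3, and the ETS core, in reverse, in Lsm7.

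An upstream sequence was found for 62 of the 71 members, and 59 of these 62 were tested. The members' shares cover all 62. The ETS core, read on both strands, occurred in 45.2% of these members, against 24.7% of 10196 tested genes with an entry and 13.6% of all 32851 listed starts. For the NRF1 core the shares were 25.8%, 11.5% and 6.43%, and for the CCAAT box 46.8%, 36.1% and 33.9%. The E-box letters CACGTG occurred in 4.84%, 8.38% and 6.02%. The TATA box letters TATAAA occurred in 6.45%, 6.74% and 12.4%. The YY1 core AAGATGG occurred in 1.61%, 4.40% and 4.49%. No marked motif overlaps another in the sequences shown, and a match describes the letters only.

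Among Sm proteins, Snrpd3 had the smallest p of any splicing factor gene. Its signal was 219.7, 215, 200.5, 237 and 203 in controls 1 to 5 and 409, 321, 513, 474 and 374 in Mll-deficient mice 1 to 5. The lowest Mll-deficient array lay above the highest control, and the controls were close to each other (215 ± 14.5, against 418 ± 76.8, SD, n = 5 each). The log2 difference was 0.89 ± 0.20 (SE, adjusted p = 0.0145), and it kept an adjusted p under 0.05 when any 1 array was left out. A dimmer Snrpd3 probe set gave 76.1 ± 22.8 and 102 ± 10.4, a difference of 0.38 (adjusted p = 0.397 over all probe sets), and the mean of all Snrpd3 probe sets gave 0.38 (adjusted p = 0.149).

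Snrpf, which sits in the same ring, showed the largest difference of the members. Controls had signals of 581, 585, 749, 539 and 1257, and Mll-deficient mice 952, 1122, 1676, 2762 and 2079.7. Control 5 lay above Mll-deficient mice 1 and 2, so the groups overlapped through that array. The log2 difference was 1.16 ± 0.30 (SE, adjusted p = 0.0324) and it was 1.37 (adjusted p = 0.00719) without control 5. It no longer passed without any 1 of controls 1 to 4 (adjusted p = 0.0855, 0.0554, 0.0653 and 0.0815) or without Mll-deficient mouse 3, 4 or 5 (0.0739, 0.0749 and 0.0940).

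The other tested Sm genes did not pass. Snrpg had 2171, 2029.6, 3831, 2343 and 4338 in controls and 3106, 3852, 4611, 5971 and 5829 in Mll-deficient mice, a difference of 0.69 ± 0.26 (adjusted p = 0.129), with controls 3 and 5 inside the Mll-deficient range. Another, much dimmer Snrpg probe set did pass, at 25.6 ± 5.40 in controls and 90.4 ± 51.7 in Mll-deficient mice (log2 difference 1.23, adjusted p = 0.0293 over all probe sets). Snrpe differed by 0.62 ± 0.28 (adjusted p = 0.223). Snrpb, whose probe set was the brightest of the Sm genes, had 4486, 4344, 4506, 4438 and 5176 in controls and 5845, 4548, 7238, 4849 and 5446 in Mll-deficient mice. Its 5 control arrays were tight apart from control 5, and the difference of 0.27 ± 0.18 did not pass (adjusted p = 0.435).

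**Figure D2:**
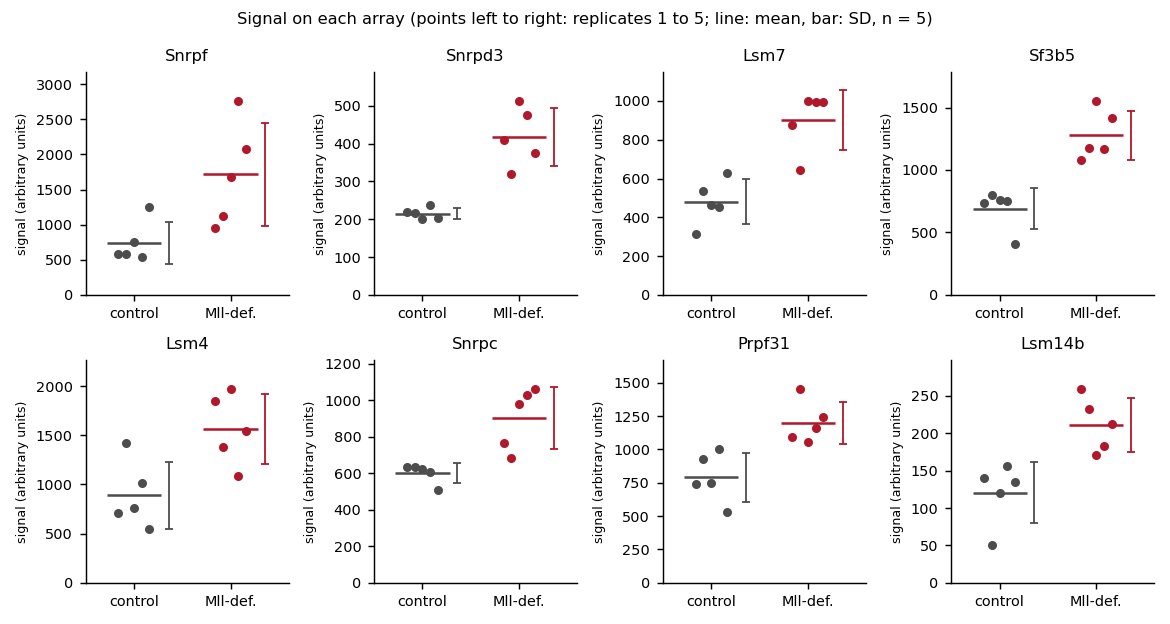
Signal (linear axis from 0, arbitrary units) of 8 splicing factor genes on each of the 10 arrays, with replicates 1 to 5 from left to right in each group, a line for the mean and a bar for the SD. Snrpd3, Lsm7 and Sf3b5 are separated between the groups, while for Snrpf control 5, at 1257, lies within the Mll-deficient range.

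In the U6 ring, Lsm7 passed. Its signal was 314, 537, 463, 454 and 631 in controls and 876, 643, 999.8, 996 and 994 in Mll-deficient mice. The groups were apart, though Mll-deficient mouse 2 at 643 was close to control 5 at 631. The log2 difference was 0.90 ± 0.22 (SE, adjusted p = 0.0253). It passed without control 2, control 5 or Mll-deficient mouse 2 and missed without any 1 of the other 7 arrays (controls 1, 3 and 4: adjusted p = 0.0713, 0.0590 and 0.0579; Mll-deficient mice 1, 3, 4 and 5: 0.0516, 0.0630, 0.0553 and 0.0719).

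Lsm4, another protein of that ring, had 709.8, 1417, 758, 1011 and 542 in controls and 1844, 1382, 1971, 1085 and 1542 in Mll-deficient mice. Control 2 lay above Mll-deficient mice 2 and 4, and the difference of 0.85 ± 0.25 missed the threshold (adjusted p = 0.0612). Without control 2 it was 1.04 (adjusted p = 0.0190), and without Mll-deficient mouse 4 it was 0.97 (0.0497). Lsm3 and Lsm6 differed by 0.66 ± 0.26 (adjusted p = 0.155) and 0.50 ± 0.21 (0.192). Another Lsm6 probe set of nearly the same brightness had 150 ± 13.1 and 173 ± 23.8, a difference of 0.19 (adjusted p = 0.687 over all probe sets). Without control 1 the Lsm6 difference was 0.64 on the probe set used and 0.15 on that other one, which was then the brighter. Lsm8, which marks the nuclear ring, went the other way, with 3227, 2387, 3439, 4114 and 3863 in controls and 1300.1, 3434, 2021, 3128 and 3811 in Mll-deficient mice. Only Mll-deficient mice 1 and 3 lay below all controls, and the difference of -0.39 ± 0.27 did not pass (adjusted p = 0.453) and ran from -0.54 to -0.15, the latter without Mll-deficient mouse 1. Lsm1, which replaces Lsm8 in the cytoplasmic ring that takes part in mRNA decay, differed by 0.39 ± 0.24 (adjusted p = 0.384).

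**Figure D3:**
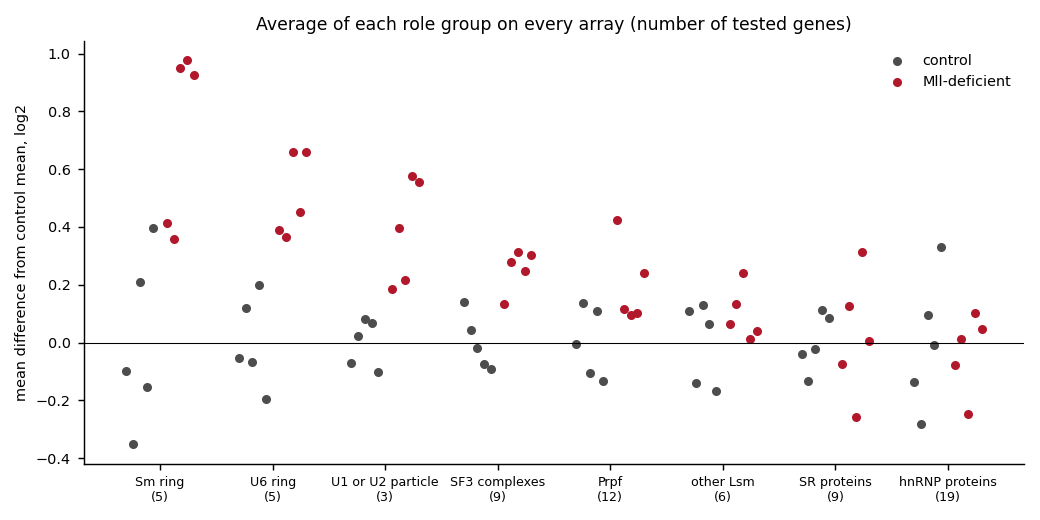
Mean log2 signal of the tested members of each role on every array (1 point an array), relative to the control mean of that role, with the number of genes in parentheses. The U6 ring lies at -0.20 to 0.20 in controls and 0.37 to 0.66 in Mll-deficient mice, whereas the hnRNP proteins lie at -0.28 to 0.33 and -0.25 to 0.10.

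Averaged over its tested members on each array, the U6 ring lay between -0.20 and 0.20 in controls relative to their mean and between 0.37 and 0.66 in Mll-deficient mice, without overlap. The Sm ring lay between -0.35 and 0.40 in controls and between 0.36 and 0.98 in Mll-deficient mice, and control 5 alone overlapped the Mll-deficient arrays. For the U1 and U2 particle genes the ranges were -0.10 to 0.08 and 0.18 to 0.58, over 3 genes.

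Of these, Snrpc, a protein of the U1 particle, was higher in every Mll-deficient mouse than in any control. It had 637, 636, 625, 604 and 508 in controls and 766, 684, 977, 1027 and 1062 in Mll-deficient mice, a difference of 0.56 ± 0.19 that did not pass (adjusted p = 0.108). Snrpa1, of the U2 particle, had 2010.3, 2149, 2697, 2624 and 4809.9 against 2937, 3122, 2394, 4985 and 3979, and its groups overlapped through control 5 (0.31 ± 0.26, adjusted p = 0.534). Snrpb2 differed by 0.29 ± 0.25 (adjusted p = 0.571), with control 5 at 117 and the other controls at 255 to 293. A dimmer Snrpb2 probe set had 85.1 ± 15.2 and 182 ± 66.7, a difference of 0.91 (adjusted p = 0.0625 over all probe sets).

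Of the 9 SF3 genes, Sf3b5 rose (11.1%, against 3.76% of all tested genes) and 8 did not pass, with a median difference of 0.32. Sf3b5 had 738, 801, 759.9, 752 and 404 in controls and 1076, 1174, 1552, 1167 and 1415 in Mll-deficient mice. The groups were apart, and control 5 was the lowest of all. The log2 difference was 0.90 ± 0.22 (SE, adjusted p = 0.0257), 0.72 without control 5 (adjusted p = 0.0265), and it missed without Mll-deficient mouse 3 (0.0694) or 5 (0.0741). A dimmer Sf3b5 probe set had 137 ± 57.5 and 262 ± 45.7, a difference of 0.94 (adjusted p = 0.0716 over all probe sets), and the mean of all its probe sets gave 0.61 (adjusted p = 0.0585).

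The larger SF3 subunits showed no common direction. Sf3b3 and Sf3a1 differed by 0.59 ± 0.32 (adjusted p = 0.320) and 0.51 ± 0.22 (0.191). Sf3b1, the subunit that touches the branch site region, had 3725, 2995, 2843, 3934 and 1946 in controls and 2541, 3152, 2507, 2335 and 2549.5 in Mll-deficient mice, a difference of -0.20 ± 0.21 (adjusted p = 0.641). The 5 Mll-deficient values of Sf3b1 lay inside the control range. Sf3b2 had 9023, 7888, 9680.0, 7601 and 17935 in controls and 7947, 7351, 8264, 10049 and 6974 in Mll-deficient mice. Control 5 was the highest array by far, and the difference was -0.29 ± 0.23 with it (adjusted p = 0.509) and -0.08 without it (0.821).

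None of the 12 Prpf genes passed, beside 3.76% of all tested genes called higher and 1.76% called lower. At an unadjusted p under 0.05 (limma), 2 were higher (16.7%) and 0 lower, against 10.5% and 10.2% of all genes. Of the 12, 8 lay above 0 (66.7%, against 46.6% of all genes), with a median difference of 0.14. Prpf31, which joins the U4/U6 and U5 particles, had 739, 928, 749.9, 1005 and 529 in controls and 1096, 1453, 1053, 1161 and 1241 in Mll-deficient mice. These groups did not overlap, yet the difference of 0.62 ± 0.21 missed the threshold (adjusted p = 0.0957). Prpf8, the large protein at the catalytic centre of the spliceosome, varied widely within both groups, with 414, 805, 161, 579 and 97.3 in controls and 1010.3, 739, 810.2, 228 and 307 in Mll-deficient mice (0.72 ± 0.50, adjusted p = 0.456). Prpf3 differed by 0.67 ± 0.29 (adjusted p = 0.199). Prpf40b, related to a U1-associated yeast protein, had the lowest difference of the family, -0.38 ± 0.28 (adjusted p = 0.481), at signals of 43.3 to 123 in controls and 30.6 to 84.6 in Mll-deficient mice.

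Prpf19, the ubiquitin ligase that organises the activated spliceosome, depended on the probe set. On the brightest it had 9657, 12078, 15324, 12804 and 24222 in controls and 19638, 14234, 20382, 15427 and 18817 in Mll-deficient mice, with control 5 the highest array of all. The difference of 0.32 ± 0.23 did not pass (adjusted p = 0.475). Another probe set had 2338 ± 560.4 in controls and 4260 ± 432 in Mll-deficient mice (log2 difference 0.89, adjusted p = 0.0251 over all probe sets), and a further one had 2264 ± 555 and 4231 ± 425 (0.93, adjusted p = 0.0214). A dim one had 29.9 ± 27.7 and 92.1 ± 26.1 (1.46, adjusted p = 0.0420). On these 3 probe sets every Mll-deficient array lay above every control, and with the mean over all its probe sets Prpf19 was among the members called higher.

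**Figure D4:**
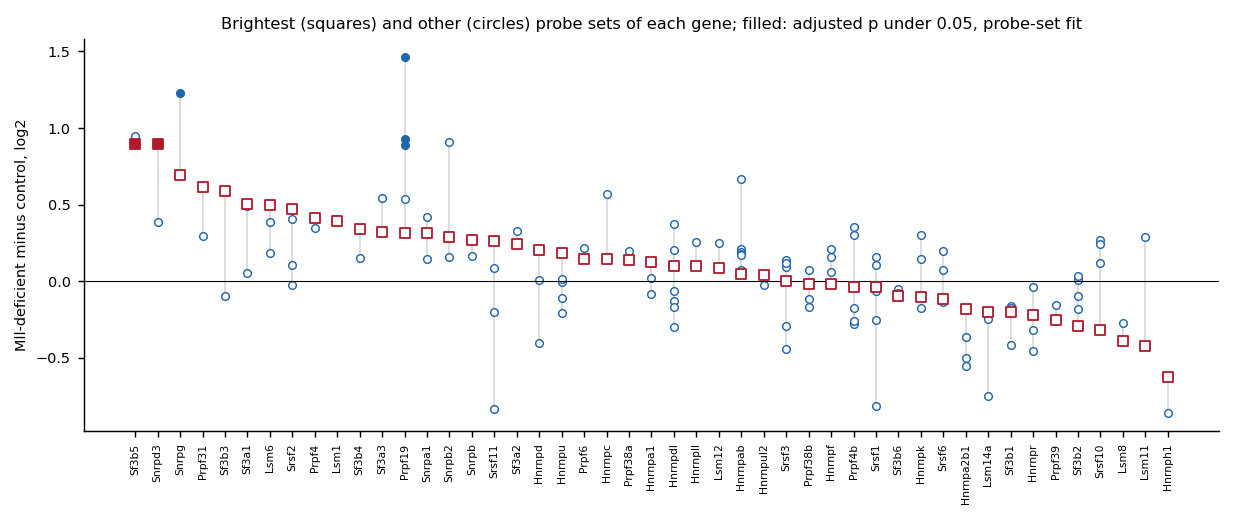
Log2 difference (Mll-deficient minus control) on the probe set used (squares) and on every other tested probe set (circles) of the 47 splicing factor genes that have one, with filled symbols at an adjusted p under 0.05 in the fit over probe sets. Prpf19 has 3 filled circles, at 0.89 to 1.46, above its open square at 0.32, and Snrpg has 1 filled circle, at 1.23.

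Across the array, 194 probe sets named a member alone. Of the 123 not used for the gene values, 109 were tested, over 47 members, and 4 of these were higher (3.67%, against 2.12% of all 27022 tested probe sets). They were the 3 of Prpf19 and 1 of Snrpg, and 0 were lower. The brightest other probe set had the same sign as the one used in 35 of 47 genes. Of the 71 probe sets used, 40 carry the plain suffix and 15 the suffix for transcripts of the same gene. The other 16 carry a suffix (10 and 6) that marks probes shared with, or partly matching, other transcripts. Those 16 include the sets used for the called Sf3b5, for the ring genes Snrpb, Snrpe, Snrpg and Lsm6, and for Prpf19 and Sf3b2. Snrpf, Snrpd3 and Lsm7 were read from sets with the plain suffix.

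The Lsm genes outside the U6 ring did not pass. Lsm14b, an RNA granule protein with a role in translational repression, had 141, 50.7, 119.7, 156 and 135 in controls and 259, 232, 170.2, 183 and 212 in Mll-deficient mice. Every Mll-deficient array was above every control, at a difference of 0.79 ± 0.26 (adjusted p = 0.0888). Its relative Lsm14a differed by -0.20 ± 0.25 (adjusted p = 0.709). Lsm11, which belongs to the U7 particle that trims histone mRNA, had 185, 128, 149, 150.3 and 177 in controls and 142, 133, 96.0, 106 and 94.0 in Mll-deficient mice. Controls 1 and 5 were the highest and Mll-deficient mice 3 to 5 the lowest arrays, and the difference of -0.42 ± 0.21 did not pass (adjusted p = 0.260). Another Lsm11 probe set went the opposite way, at 50.4 ± 17.8 and 62.8 ± 4.39 (log2 difference 0.29, adjusted p = 0.554 over all probe sets), and the mean of both gave -0.07. Lsm10, its partner in that particle, differed by -0.06 ± 0.31 (adjusted p = 0.939).

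None of the regulators of splice site choice passed. Of 28 tested SR and hnRNP genes 0 were called in either direction (limma), a count near the 3.76% higher and 1.76% lower of all tested genes. At an unadjusted p under 0.05, 1 was higher (3.57%, against 10.5% of all genes) and 0 lower, and the median difference was 0.01, with 15 above 0. Srsf2, an SR protein that binds exonic enhancers, was the gene at an unadjusted p under 0.05. It had 346, 338, 428, 491 and 628 in controls and 526, 609, 585, 552 and 797 in Mll-deficient mice, and only control 5 lay within the Mll-deficient range (0.47 ± 0.22, adjusted p = 0.229). Another Srsf2 probe set of nearly the same brightness had 492 ± 103 and 573 ± 243, a difference of 0.11 (adjusted p = 0.899 over all probe sets). Without control 5 the difference was 0.60 on the probe set used and 0.07 on that other one, which was then the brighter. Srsf1, the founding member of the family, had 3204, 2452, 3873, 3768 and 3087 against 2288, 3848, 2172, 3992 and 4086. Mll-deficient mice 1 and 3 lay below all controls and the others near or above the highest control. Its difference of -0.04 ± 0.23 (adjusted p = 0.950) turned to 0.02 after median centring and ran from -0.14 to 0.10 as single arrays were left out.

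Among hnRNP genes, differences ran from -0.63 to 0.30. Hnrnph1, which binds runs of G near splice sites, was the lowest, with 4228, 3203, 4207, 5753 and 3948 in controls and 1564, 5706, 1371, 3789 and 3133 in Mll-deficient mice. Mll-deficient mice 1 and 3 were far below every control while mouse 2 was near the highest control. The difference of -0.63 ± 0.33 was within that spread (adjusted p = 0.293). Its relatives Hnrnph2 and Hnrnph3 differed by -0.38 ± 0.23 (adjusted p = 0.385) and -0.36 ± 0.23 (0.395), and Mll-deficient mice 1 and 3 were again the lowest arrays for Hnrnph2, at 463 and 399 against 582 to 927 in controls. At the other end, Hnrnpa0 differed by 0.30 ± 0.20 (adjusted p = 0.438). Hnrnpa1 and Hnrnpa2b1, which bind silencer elements, differed by 0.12 ± 0.20 (adjusted p = 0.785) and -0.18 ± 0.22 (0.699). Hnrnpdl, with the brightest probe set of the family, had 11431, 11883, 14142, 12454 and 21741 in controls and 16052, 13163, 17177, 13152 and 15490.1 in Mll-deficient mice. Control 5 was the highest array, and the difference of 0.10 ± 0.20 (adjusted p = 0.828) was -0.07 under quantile normalization.

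**Figure D5:**
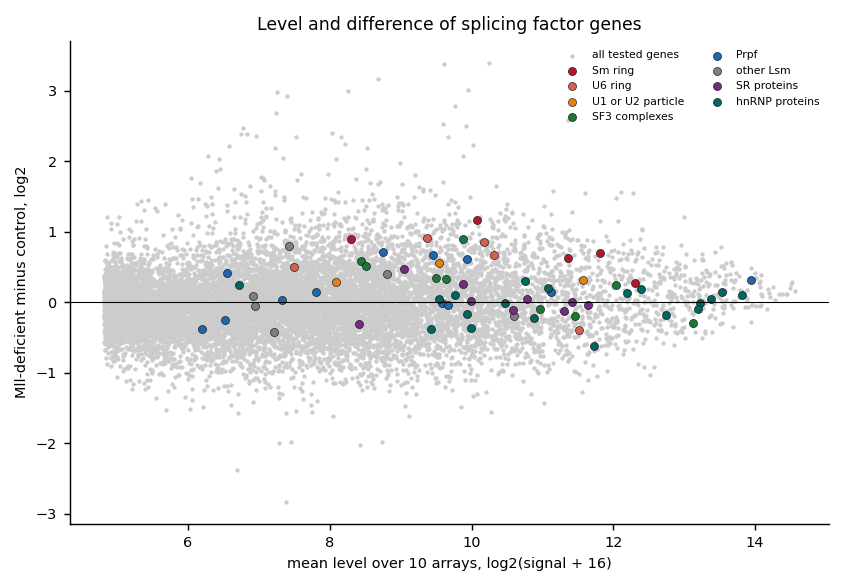
Log2 difference of all tested genes (grey) and of the 68 splicing factor genes (coloured) against mean log2(signal + 16) over the 10 arrays. Of the 68 members 50 lie in the brightest of 4 equal bins of genes, where 7.15% of the genes were called higher.

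Most members had bright probe sets, which depends on the probes as well as on the transcripts. When the tested genes were put in 4 equal bins by mean signal, 50 of the 68 members lay in the brightest, where 7.15% of genes were called higher. The shares in the other bins were 4.83%, 2.48% and 0.572% from bright to dim. The members' 5.88% lay below that of the bin that holds most of them. This bin began at a mean log2 signal of 8.88. The median levels of the 10 tested Sm and U6 ring genes, 10.2, and of the wider list below, 9.29, also lay in it. Shares at an unadjusted p were not taken by bin.

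With the 3′ to middle ratio as a covariate in the limma fit, 13 members were higher (19.1%), against 7.69% of all tested genes, and 0 were lower, against 5.10%. The 13 held the 4 called genes together with Snrpg, Lsm3, Lsm4, Snrpc, Sf3b3, Prpf3, Prpf8, Prpf31 and Lsm14b. No SR or hnRNP gene was among them. Snrpf was then at 1.08 ± 0.21 (adjusted p = 0.00281) and Lsm4 at 0.90 ± 0.20 (adjusted p = 0.00770). Prpf8, with its wide spread, moved to 0.88 ± 0.28 (adjusted p = 0.0464).

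The wider splicing machinery was read from a list of 117 other genes, such as those of the exon junction complex, U2 auxiliary factors, spliceosomal helicases and the assembly factors of the Sm ring. Of these, 104 were tested, 1 was higher, 0 were lower and 103 did not pass, with a median difference of 0.11. The share called higher, 0.962%, lay below the 3.76% of all tested genes. It also lay below the 7.15% of the brightest bin, which held the median level of the list. At an unadjusted p under 0.05, 8 were higher (7.69%) and 5 lower (4.81%), also below the 10.5% and 10.2% of all genes. The gene that rose was Eftud2, the GTPase partner of Prpf8 in the U5 particle, with 874, 1464, 1135, 926 and 1516 in controls and 2116, 1502, 2259, 2447 and 2143 in Mll-deficient mice. Mll-deficient mouse 2 lay just under control 5, and the difference was 0.83 ± 0.22 (SE, adjusted p = 0.0332). It missed without controls 1, 3 or 4 (adjusted p = 0.0953, 0.0747 and 0.0863), without Mll-deficient mice 1, 3, 4 or 5 (0.0702, 0.0792, 0.0766 and 0.0818), with the mean of its probe sets (0.105) and with a replicate block (0.0610).

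The 6 genes of this list with the next smallest p did not pass. Prmt5, the arginine methyltransferase that modifies Sm proteins before ring assembly, had a lowest, median and highest signal of 42.1, 83.5 and 157 in controls and 110.0, 166 and 311 in Mll-deficient mice, with overlap (1.01 ± 0.32, adjusted p = 0.0788). Its partner Wdr77 had 901, 899, 811, 797 and 645 against 1076, 1212, 1079, 1580.0 and 1281, with no overlap (0.60 ± 0.19, adjusted p = 0.0752). Strap, which works with the SMN complex in assembly, differed by 0.77 ± 0.23 (adjusted p = 0.0592), and Phf5a, a small SF3b protein outside the symbol rule, by 1.12 ± 0.36 (0.0815). On the low side, Ptbp2, a repressor of alternative exons, had 107, 43.8, 69.0, 98.1 and 137 in controls and 26.9, 89.9, 26.8, 29.7 and 30.3 in Mll-deficient mice. All but Mll-deficient mouse 2 lay below every control (-0.95 ± 0.30, adjusted p = 0.0825). Mbnl2, another regulator of alternative exons, differed by -0.64 ± 0.21 (adjusted p = 0.0873). These 6 genes were chosen after their values were seen.

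Markers of red cell precursors moved between the same groups. Beside the counts that follow, 3.76% of all tested genes were called higher and 1.76% lower (limma). At an unadjusted p under 0.05 the shares of all tested genes were 10.5% and 10.2%. Of 13 tested erythroid markers 11 were higher in Mll-deficient mice, 0 were lower, and all 13 lay above 0, and the summed signal of those on the array was 1689 to 7643 in controls and 11629 to 17640 in Mll-deficient mice. Klf1, an erythroid transcription factor, was at 203 to 579 in controls and 2017 to 3951 in Mll-deficient mice. Of 15 S phase genes 3 were higher and 0 lower (9 higher and 0 lower at an unadjusted p under 0.05, and all 15 above 0), with summed signals of 39219 to 62300 and 49754 to 66491, and Mcm2, a replication helicase subunit, was at 734 to 1438 and 1695 to 4349. No gene passed among 11 of G2 phase and mitosis or 13 of granulocytes and monocytes (limma; at an unadjusted p under 0.05, 0 higher and 1 lower, and 4 higher and 1 lower), with summed signals of 6406 to 15783 and 7069 to 12163 in the former and 117090 to 174737 and 123110 to 204842 in the latter. Among 8 megakaryocyte markers 1 was higher (summed signal 5031 to 12639 and 5096 to 8158), among 8 lymphoid markers 1 was lower (3745 to 9965 and 2037 to 6015), and among 5 of stroma and endothelium 1 was lower (304 to 474 and 216 to 305). Each of these calls is 1 gene of a short list. Of 8 genes enriched in stem cells 1 was higher and 3 were lower (7 lower at an unadjusted p under 0.05; summed signals 5080 to 10374 and 1739 to 4287), and Kit, part of the sort gate, was at 101 to 181 in controls and 27.7 to 94.1 in Mll-deficient mice (adjusted p = 0.132). No marker was listed at 0, and the part of these shifts in the splicing factor results was not tested.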

How the data were processed

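Per the submitters' processing notes, the authors made the values with MAS5 5.0, and the deposited table holds linear signal intensity per probe set of the Affymetrix Mouse Genome 430 2.0 array. The values themselves show the same 2% trimmed mean, 150.001, on each array, so scaling had removed differences in total RNA. RNA was amplified, which favours 3′ ends. No scanner files or detection calls were used here, and the number of arrays limits the precision.

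Platform annotation paired 34958 of 45101 probe sets with 1 gene symbol, updated through Entrez identifiers and the RefSeq table of GRCm38.p6 (34754 matched). Probe sets naming several genes were not used. Signals were taken as log2(signal + 16), which understates changes of dim genes. Each gene took its brightest probe set, and the 12580 genes above the 40th percentile of probe sets were fitted together with limma 3.58.1 in R 4.3.3 (lmFit, eBayes with intensity trend, two-sided), adjusted by Benjamini-Hochberg at 0.05. Every adjusted p is from limma. Differences are Mll-deficient minus control, and values after ± are SD for signals and SE for differences unless stated. Other probe sets were fitted in a separate limma model of 27022 probe sets. The Kmt2a probe sets were read from a further limma model, of all probe sets except array controls, without the brightness filter. Their adjusted p is over that larger set.

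Members and lists were chosen with earlier results of these data known. Genes named were the called members, the 5 largest differences each way, the brightest and the smallest p of each role, called genes of the wider list, Kmt2a and leading markers, and other members are given for their role; Mcm2 and Klf1 stand for the marker lists. Same-numbered arrays of the groups did not deviate together (correlations 0.08, 0.09, -0.17, -0.23 and 0.28), so numbers were not used as pairs. Alternatives covered the offset, normalization, filter, probe set choice, variance prior, array weights, a replicate block, RNA quality, thresholds and leaving out each array, with each gene's probe set kept as chosen over all 10 arrays.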

Additional observations from a re-analysis of the deposited data

Results flagged for a closer look

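A control array lay far from the other 4 of its group for 5 splicing factor genes, by the gap to its nearest neighbour relative to the group's range. Control 5 had a Sf3b5 signal of 404 (others 738 to 801), a Sf3b2 signal of 17935 (others 7601 to 9680.0), a Snrpb signal of 5176 (others 4344 to 4506) and a Snrpc signal of 508 (others 604 to 637). Control 2 had a Lsm14b signal of 50.7 (others 119.7 to 156). Chance flags about 1 in 20 groups, and 44 were examined. These came from the called members, the 5 largest differences each way, the brightest and smallest p of each role, and Eftud2. Other members were not examined, such as Hnrnpu, where control 5 had 7849 (others 4292 to 4641). Without control 5 the Sf3b5 difference remained past the threshold, at 0.72.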

How the results depend on the processing

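Under the 13 settings other than leaving out an array, the count of 4 members called higher changed by more than 1.5 times with the RNA quality covariate (13) and with thresholds of 0.10 (7) and 0.01 (0). With a replicate block it was 4. Leaving out single arrays gave 1 to 5: 1 without Mll-deficient mouse 3 or 5, and 2 without control 1, 3 or 4. No member was called lower under any of them. The wider list's 1 higher gene became 3 with quantile normalization, median centring or array weights. It became 2 with the 60th percentile filter or the replicate block, 5 at a threshold of 0.10 and 0 at 0.01. With the RNA quality covariate it became 8 of 104, where 7.69% of all tested genes were higher. It was 0 to 3 as arrays were left out. The list's 0 lower genes became 1 with the mean of all probe sets or array weights, and 2 at 0.10. With the RNA quality covariate they became 3 of 104, where 5.10% of all tested genes were lower. They were 0 to 2 as arrays were left out. Shares of all genes under the other settings are not given here. The direction turned for Hnrnpdl under quantile normalization (-0.065) and for Srsf1 under median centring (0.024) and when arrays were left out (-0.14 to 0.10). For Srsf2 without control 5 and for Lsm6 without control 1, a probe set chosen again gave 0.07 and 0.15. This alternative was chosen after seeing the data. The cause was not tested. The median member difference stayed above 0 under all settings (0.07 to 0.20).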

Other observations

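Of the called members with an upstream sequence, all 3 lie on chromosome 10, which was noticed after their values were seen. Chromosome 10 holds 517 of 10196 tested genes with a position in the RefSeq table (5.07%) and 5 members, and 7.16% of its tested genes were higher in Mll-deficient mice, against 3.80% of all of them. The remaining 2 of its 5 members did not pass.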
